A study of Mus musculus with 32 samples.

Results

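PRDM16 is a zinc-finger regulator of transcription that exists as 2 protein forms. Compared here are mouse leukaemia cells given the short form and the same kind of cells given the full-length form. The comparison takes 6 of the 32 libraries of the series, chosen by their labels: 3 of Prdm16-knockout MLL-AF9 cells over-expressing short PRDM16 (KO+s) and 3 of Prdm16-knockout MLL-AF9 cells over-expressing full-length PRDM16 (KO+f). Both groups share the knockout of the endogenous gene, the MLL-AF9 oncogene and their source, leukaemic cells sorted from moribund mice with no culture step. The other leukaemia groups, used to set levels beside these, were MLL-AF9 cells with the gene intact (WT+EV, 3 libraries) and knockout cells (KO+EV, 3 libraries), both carrying an empty vector. Mouse strain, the sorting markers, and whether the replicates came from separate transductions are not given in the sources used here. The design text calls the replicates independent, and p-values measure the spread between these libraries.

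Full-length PRDM16 (f-PRDM16) carries an N-terminal PR domain, related to the SET domains of histone methyltransferases, followed by zinc fingers that bind DNA and regions that recruit corepressors. Short PRDM16 (s-PRDM16) lacks the PR domain and keeps the rest of the protein. PRDM16 is needed for the upkeep of haematopoietic stem cells, and the forms without a PR domain, of PRDM16 and of its relative MECOM, are the ones tied to myeloid leukaemia. MLL-AF9 is a fusion of the histone methyltransferase MLL with AF9 that keeps Hoxa and Meis1 genes on and blocks myeloid cells from maturing.

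RNA was measured as poly-A RNA-seq read counts per gene. The 12 leukaemia libraries held 16.4 to 23.8 M counts, and the 6 compared here 19.7 to 23.8 M. Of 23284 genes 12958 had enough counts to be tested. Levels are CPM (read counts relative to library size) scaled for library make-up, listed in the order of libraries 1, 2 and 3. Differences are log2 values, KO+s minus KO+f, with standard errors after ±, and a gene was called at an adjusted p below 0.05 in edgeR's quasi-likelihood test, which took its spread from all 12 libraries. Of 8 genes that mark this leukaemia, all were present in the 6 libraries, with Hoxa9 at 191, 164 and 202 CPM in KO+s and 223, 187 and 224 in KO+f. The red-cell genes Hbb-b1 and Hba-a1 and the basophil receptor gene Fcer1a were at 0 in all 6 libraries. KO+EV 3 stood apart from all other libraries in Mpo, a primary granule enzyme (3889, 3269.8 and 33196 CPM in KO+EV). It enters this comparison through the shared spread, the choice of genes tested (13165 without it) and the scaling. It also enters the KO+EV levels set beside the 2 groups.

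Prdm16 levels after add-back overlapped between the groups. Prdm16 stood at 312, 241 and 192 CPM in KO+s and at 331, 234 and 236 CPM in KO+f, against 0, 0.0915 and 0.0521 CPM in KO+EV and 0.991, 0.723 and 0.424 CPM in WT+EV. The difference of the forms was -0.10 ± 0.22 (adjusted p = 0.819). Reads of both forms are counted under 1 gene name, so this does not check which form each library carried.

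With Prdm16 at these levels 494 genes differed between the forms, 3.81% of those tested. In KO+s 266 genes were higher (2.05%) and 228 were lower (1.76%), and at an unadjusted p under 0.05 it was 2920. Size and level differed by direction. Genes higher in KO+s changed by a median of 1.11 log2 units, 47 of the 266 by at least 2, and had a median level of 95.3 CPM in KO+s and 45.3 in KO+f. Genes lower in KO+s changed by a median of 2.01 log2 units, 114 of the 228 by at least 2, and had a median level of 2.55 CPM in KO+s and 13.3 in KO+f. Of the lower genes 91 averaged under 1 CPM in KO+s, and 25 had at most 3 counts over its 3 libraries together. The median difference over all genes tested was -0.02. CPM of both groups were apart in all 494 called genes and in 30.5% of all genes tested.

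**Figure D1:**
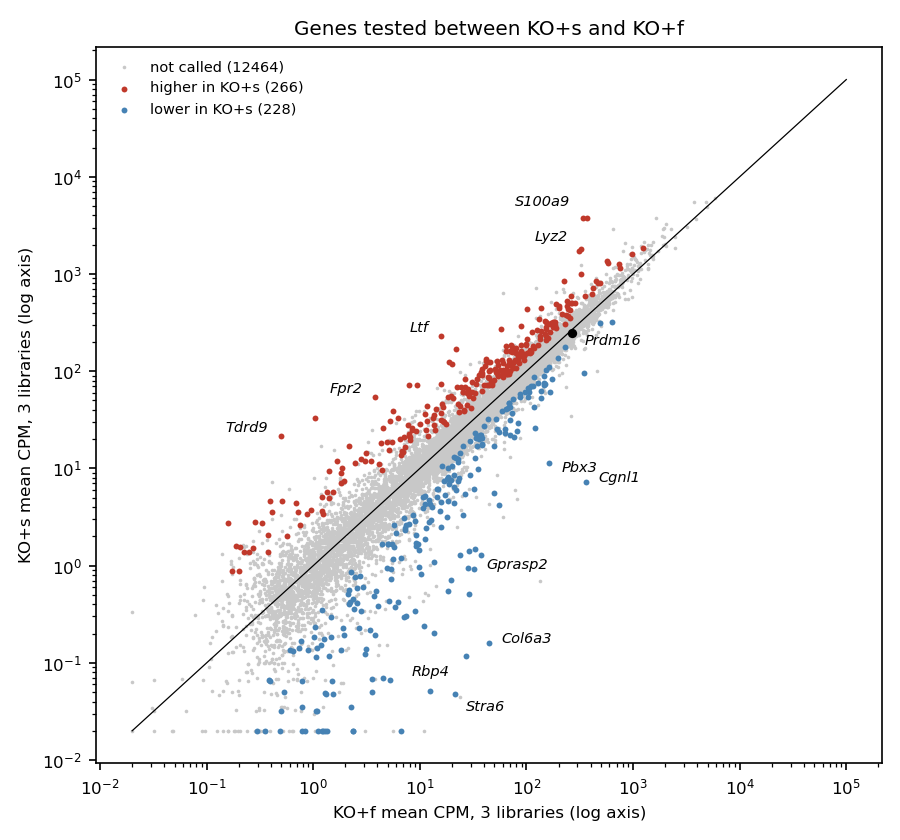
Mean CPM over 3 libraries in KO+f (x, log axis) and KO+s (y, log axis) of the 12958 genes tested, with the line of equality. The 266 genes higher in KO+s (red) are mostly well-expressed genes near the line, the 228 lower genes (blue) reach down to means of 0 (drawn at 0.02), and Prdm16 (black) lies by the line.

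The empty-vector groups placed the called genes further. KO+s had the lowest mean of all 4 groups for 221 of the 228 lower genes, against 4232 of all 12958 genes tested. It had the highest mean for 244 of the 266 higher genes, against 3864 of all tested. The choice of genes fixed its order against KO+f. As it used the same KO+s values, it also favoured an extreme place for KO+s among the 4 groups. For the lower genes the median level was 20.5 CPM in KO+EV and 14.9 in WT+EV, and KO+f lay below KO+EV in 174 of 228 (76.3%, against 51.0% of all genes tested). For the higher genes the median level was 44.5 CPM in KO+EV and 60.0 in WT+EV, and KO+f lay above KO+EV in 148 of 266 (55.6%, against 49.0% of all genes). KO+f libraries differed among themselves in the lower genes: KO+f 2 was the lowest of its group in 130 of the 228 (57.0%, against 30.1% of all genes) and KO+f 3 the highest in 173. KO+f 2 had 17847 genes with a count, against 15114 to 15672 in the other 5 libraries, while its Prdm16 level was close to that of KO+f 3. Its part in the calls was not tested beyond leaving it out. The fit without it called 213 lower and 117 higher genes. Of these, 151 were among the 228 lower genes and 109 among the 266 higher genes. Leaving out KO+s 1, KO+s 3 or KO+f 3 gave 37, 69 and 129 called genes in all, and without KO+EV 3 the count rose to 1047.

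Several granule proteins of later neutrophil maturation were higher with the short form. Neutrophil precursors first make primary (azurophil) granules, filled with enzymes such as myeloperoxidase and elastase, and later the secondary and tertiary granules, filled with lactoferrin, lipocalin and gelatinase. Of 31 tested genes of secondary and tertiary granules 10 were higher in KO+s and 0 lower, with a list median of 1.92 and 29 of 31 above 0; the share above 0 over all genes was 47.8%. Of 17 primary granule genes 1 was higher, with a median of 0.34.

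Ltf, which encodes lactoferrin, an iron-binding antimicrobial protein, stood at 302, 103 and 285 CPM in KO+s and 10.5, 16.9 and 19.7 in KO+f, a difference of 3.87 ± 0.84 (adjusted p = 0.0343). Ngp, neutrophilic granule protein, read 1886, 1362 and 1882 against 203, 295 and 442 CPM (2.45 ± 0.50, adjusted p = 0.0274), and Lcn2, the iron-siderophore binding lipocalin, 484, 230.3 and 580.5 against 118, 97.8 and 88.5 CPM (2.09 ± 0.49, adjusted p = 0.0417). Mmp9, a gelatinase, read 383, 159 and 281 against 76.03, 59.01 and 38.4 CPM (2.25 ± 0.46, adjusted p = 0.0274). Every KO+s library was above every KO+f library in these 4 genes, and KO+s 2 was the lowest of its group in each. Chi3l1, a chitinase-like protein, varied little among the KO+s libraries, at 79.3, 60.9 and 76.6 against 9.34, 9.92 and 4.62 CPM (3.18 ± 0.36, adjusted p = 0.00489).

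Lyz2, lysozyme, a bacterial cell-wall enzyme, read 1819, 1139 and 2479 against 459, 240.2 and 266 CPM (2.49 ± 0.33, adjusted p = 0.00592), although its near-identical neighbour Lyz1 makes the split of reads uncertain. Cd177, a neutrophil surface protein, read 1131, 805 and 1048 against 361, 284 and 335 CPM (1.61 ± 0.27, adjusted p = 0.0129). Itgb2l, an integrin beta-2-like protein (2.57 ± 0.38, adjusted p = 0.00832), and the adhesion molecules Ceacam1 (1.16 ± 0.16, adjusted p = 0.00647) and Ceacam10 (3.16 ± 0.50, adjusted p = 0.0104) were higher too. Camp, the cathelicidin gene, did not pass at 739, 451 and 988 against 48.2, 66.2 and 253 CPM (2.57 ± 0.82, adjusted p = 0.0963), KO+f 3 being well above the other 2 of its group.

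Among primary granule genes the 1 call was Lyst, a lysosomal trafficking regulator whose loss causes giant granules, at 509, 538 and 465 against 309, 263 and 219.9 CPM (0.93 ± 0.21, adjusted p = 0.0372). Mpo did not pass at 5069.5, 9230.1 and 2055 against 3691, 7131 and 3773 CPM (0.16 ± 0.80, adjusted p = 0.926), and its groups overlapped. Elane, neutrophil elastase, did not pass either, at 5517, 5238 and 5614 against 3846, 4252 and 3116 CPM (0.55 ± 0.43, adjusted p = 0.486), its groups being apart. Chi3l1, Lyz2 and Ceacam1 passed in each of the 6 fits that left out 1 KO+s or KO+f library. Of the 11 called genes with values above, the number that did not pass was 8 without KO+s 1 (adjusted p up to 0.137), 1 without KO+s 2 (adjusted p 0.0694), 6 without KO+s 3 (adjusted p up to 0.148), 3 without KO+f 1 (adjusted p up to 0.0807), 5 without KO+f 2 (adjusted p up to 0.105) and 6 without KO+f 3 (adjusted p up to 0.146).

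The markers of mature neutrophils that were measured all belong to the secondary and tertiary granule list, so their sum repeats genes counted above. The summed level of Ltf, Camp, Ngp and Retnlg, the 4 of 5 listed markers found in the table, was 1916 to 3158 CPM in KO+s and 263 to 716 in KO+f, against 518 to 547 in KO+EV and 1259 to 7041 in WT+EV. Of these 4 markers 2 were called. Retnlg, a resistin-like protein of mature neutrophils, was near the floor at 3.24, 0.319 and 3.18 CPM in KO+s and 0.341, 0.192 and 0.400 in KO+f. In bulk RNA a larger share of maturing cells and more of these RNAs in each cell cannot be told apart.

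**Figure D2:**
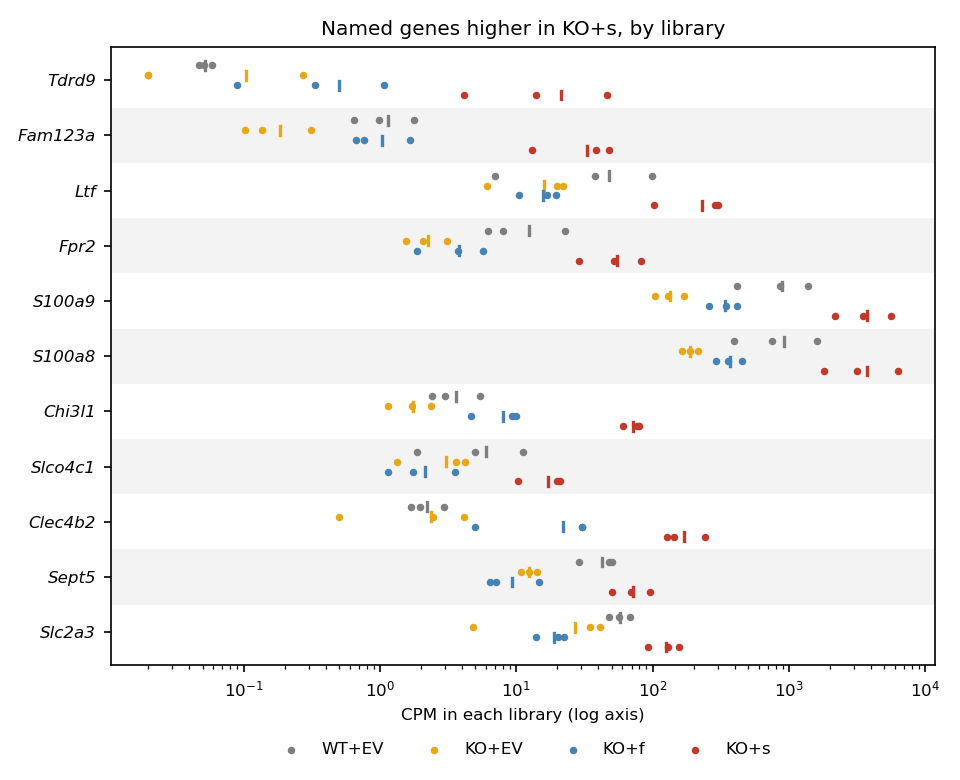
CPM of 11 genes higher in KO+s in each of the 12 leukaemia libraries (points, log axis; values below 0.02 drawn at 0.02; short bars are group means). The genes were chosen for groups that do not overlap, so the KO+s libraries (red) stand to the right of all KO+f libraries (blue) in each row by choice. The margin between group means is widest for Tdrd9.

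The calgranulins and chemoattractant receptors followed. S100a8 and S100a9 form calprotectin, the calcium- and metal-binding complex that fills the cytosol of neutrophils. S100a9 stood at 3493, 2155 and 5571 CPM in KO+s and 259, 415 and 342 in KO+f (3.46 ± 0.46, adjusted p = 0.00592). S100a8 read 3134, 1804 and 6235 against 294, 449 and 356 CPM (3.35 ± 0.54, adjusted p = 0.0122). Both had KO+s 3 highest and KO+s 2 lowest, and in both all KO+s libraries exceeded all 6 empty-vector libraries. Of the 15 tested S100 and stefin genes 3 were higher and 0 lower, with a median of 0.23; the third was S100a11 (0.56 ± 0.14, adjusted p = 0.0445).

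Of 16 tested chemoattractant and chemokine receptors 4 were higher and 0 lower, with a median of 0.74. Fpr2 and Fpr1 encode the receptors by which neutrophils sense formylated bacterial peptides. Fpr2 read 52.4, 28.8 and 82.7 against 5.74, 3.74 and 1.86 CPM (3.85 ± 0.61, adjusted p = 0.0115) and Fpr1, at a lower level, 5.69, 1.01 and 7.02 against 0.632, 0.336 and 0.222 CPM (3.52 ± 0.66, adjusted p = 0.0183). Ltb4r1, the leukotriene B4 receptor, read 122, 99.4 and 91.7 against 35.7, 50.9 and 27.8 CPM (1.45 ± 0.31, adjusted p = 0.0324), and Ccrl2, a chemerin-binding receptor, 14.8, 12.2 and 14.2 against 8.08, 5.90 and 5.90 CPM (1.05 ± 0.25, adjusted p = 0.0413). Of 12 chemokine genes 0 were called by edgeR or DESeq2 and 0 had an unadjusted p under 0.05; the smallest adjusted p was 0.239, for Cxcl2.

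Csf3r, the receptor for granulocyte colony-stimulating factor, was called higher among 51 growth factor receptor and cytokine signalling genes (median 0.07), at 567, 437 and 476 against 238, 158 and 171 CPM (1.38 ± 0.16, adjusted p = 0.00489). Cebpd, a C/EBP factor of late granulocytes and of inflammation, was the 1 call among 37 myeloid transcription factors (median 0.29), at 99.9, 85.3 and 119 against 55.4, 56.6 and 44.2 CPM (0.96 ± 0.22, adjusted p = 0.0352). S100a9 and Csf3r passed in each of the 6 fits that left out 1 KO+s or KO+f library. Of the 9 called genes with values above, the number that did not pass was 7 without KO+s 1 (adjusted p up to 0.167), 2 without KO+s 2 (adjusted p up to 0.0548), 5 without KO+s 3 (adjusted p up to 0.172), 4 without KO+f 1 (adjusted p up to 0.0834), 4 without KO+f 2 (adjusted p up to 0.114) and 6 without KO+f 3 (adjusted p up to 0.129).

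Promoter sequences are printed for Ltf, S100a9 and S100a8, neutrophil genes that were higher together, and for Col6a3, a lower gene described further on, so that their letters can be compared. Each window runs from 250 bases before to 50 bases after the start in RefSeq (GRCm38.p6; the counts were made on mm9), 5′ to 3′ on the gene's strand, with matches to the 7 motifs searched in capitals. In Ltf (chr9:111019042-111019341, + strand) they are a C/EBP match on the minus strand at base 176 of the window and a GATA match at 219. In S100a9 (chr3:90695672-90695971, - strand) they are a C/EBP match at 15, an NF-kB match at 116 and a GATA match at 221. S100a8 (chr3:90668821-90669120, + strand) and Col6a3 (chr1:90843922-90844221, - strand) hold none.
Ltf: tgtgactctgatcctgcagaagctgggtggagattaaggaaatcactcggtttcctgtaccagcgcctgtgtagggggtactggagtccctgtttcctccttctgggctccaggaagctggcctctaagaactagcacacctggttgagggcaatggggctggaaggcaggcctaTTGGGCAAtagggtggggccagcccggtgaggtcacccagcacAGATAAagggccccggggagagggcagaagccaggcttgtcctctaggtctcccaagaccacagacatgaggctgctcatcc
S100a9: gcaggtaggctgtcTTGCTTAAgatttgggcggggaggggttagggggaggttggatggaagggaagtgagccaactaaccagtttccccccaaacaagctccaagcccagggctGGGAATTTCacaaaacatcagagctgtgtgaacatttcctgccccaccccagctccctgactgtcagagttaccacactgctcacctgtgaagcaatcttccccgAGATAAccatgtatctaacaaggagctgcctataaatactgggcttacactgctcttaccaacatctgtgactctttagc
S100a8: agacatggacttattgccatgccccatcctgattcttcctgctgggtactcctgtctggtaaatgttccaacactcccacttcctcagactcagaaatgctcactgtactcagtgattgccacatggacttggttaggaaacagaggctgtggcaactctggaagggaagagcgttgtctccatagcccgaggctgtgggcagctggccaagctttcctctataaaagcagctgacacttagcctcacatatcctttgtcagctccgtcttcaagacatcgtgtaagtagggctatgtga
Col6a3: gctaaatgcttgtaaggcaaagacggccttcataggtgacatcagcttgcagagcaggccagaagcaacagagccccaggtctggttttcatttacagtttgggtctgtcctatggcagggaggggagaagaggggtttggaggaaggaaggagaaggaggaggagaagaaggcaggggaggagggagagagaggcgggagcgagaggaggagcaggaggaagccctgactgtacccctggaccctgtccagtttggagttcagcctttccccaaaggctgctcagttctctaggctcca

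The motifs, searched on both strands, were C/EBP (TTGCNNAA), PU.1 (AGAGGAAGT), NF-kB (GGGANTTTC), AGATAA for the factors named GATA, AP-1 (TGANTCA), CRE (TGACGTCA) and E-box (CACGTG). Shares are over genes with exactly 1 window: 144 of the higher genes, 121 of the lower and 7327 of all tested. The C/EBP letters occurred in 14.6% of higher genes, 7.44% of lower genes and 8.09% of all. The PU.1 letters occurred in 4.17, 3.31 and 1.35%, and the NF-kB letters in 1.39, 0 and 1.05%. AP-1 letters occurred in 4.86% of higher, 9.92% of lower and 5.02% of all genes, E-box letters in 6.94, 12.4 and 10.2%, GATA letters in 7.64, 4.96 and 6.28%, and CRE letters in 0.694, 1.65 and 3.33%. A match describes letters in a window and is not a bound site.

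A few phagocyte genes were called, most of them higher with the short form. The shares were 7.02% of monocyte, macrophage and dendritic genes and 7.14% of oxidase genes, against 3.81% of all genes tested. Itgam (CD11b), the alpha chain of the integrin Mac-1, stood at 1424, 1136 and 1339.5 CPM in KO+s and 697, 507 and 528 in KO+f (1.17 ± 0.15, adjusted p = 0.00489). Emr1, the macrophage surface protein F4/80, read 285, 250.1 and 349.8 against 108, 85.9 and 70.05 CPM (1.75 ± 0.33, adjusted p = 0.0199), and Treml4, a receptor that binds dead cells, 9.77, 8.08 and 9.17 against 2.29, 1.97 and 1.20 CPM (2.31 ± 0.31, adjusted p = 0.00562). These were the 3 higher calls among 57 monocyte, macrophage and dendritic genes, whose median was 0.05; Itgam was also the 1 call of 34 adhesion genes, whose median was -0.10, with 22 of 34 below 0. The 5 tissue-macrophage markers C1qa, C1qb, Vsig4, Timd4 and Siglec1 summed to 4.25 to 6.66 CPM in KO+s and 6.97 to 8.92 in KO+f.

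Ncf4, a subunit of the phagocyte oxidase that makes superoxide, read 421, 312 and 424 against 253, 219 and 179 CPM (0.83 ± 0.17, adjusted p = 0.0247). It was the 1 call among 14 oxidase and respiratory burst genes, all 14 of which lay above 0 (median 0.41). The next 6 genes, of the actin cytoskeleton, were picked after their values were seen and say nothing of actin genes as a group. Vcl, the focal adhesion protein vinculin, read 501, 453 and 449 against 217, 265 and 129 CPM (1.20 ± 0.21, adjusted p = 0.0159), and Pak1, a kinase activated by Rac, 277, 257 and 263 against 147, 132 and 101 CPM (1.07 ± 0.14, adjusted p = 0.00562). Vasp, which extends actin filaments (0.77 ± 0.15, adjusted p = 0.0199), Lcp1, the leukocyte bundling protein L-plastin (0.71 ± 0.15, adjusted p = 0.0300), Cap1, which recycles actin (0.76 ± 0.15, adjusted p = 0.0208), and Cnn2, a calponin (0.75 ± 0.19, adjusted p = 0.0473), passed as well. Itgam, Treml4 and Pak1 passed in each of the 6 fits that left out 1 KO+s or KO+f library. Of the 10 called genes with values above, the number that did not pass was 7 without KO+s 1 (adjusted p up to 0.168), 0 without KO+s 2, 7 without KO+s 3 (adjusted p up to 0.168), 1 without KO+f 1 (adjusted p 0.0526), 5 without KO+f 2 (adjusted p up to 0.0707) and 6 without KO+f 3 (adjusted p up to 0.131).

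Inflammatory signalling genes went both ways. Of 40 inflammatory cytokine and receptor genes 5 were higher and 3 lower in KO+s (median 0.30). Tnf, a cytokine of activated myeloid cells, read 13.8, 12.1 and 20.3 against 5.16, 6.71 and 3.68 CPM (1.57 ± 0.31, adjusted p = 0.0208), and Tnfaip2, a TNF-induced gene, 269.6, 243 and 239.8 against 148, 107 and 80.7 CPM (1.16 ± 0.18, adjusted p = 0.00832). Of the list's 3 prostaglandin enzymes 2 were higher: Ptges, which makes prostaglandin E2, at 25.8, 17.4 and 19.98 against 8.17, 6.90 and 9.14 CPM (1.38 ± 0.26, adjusted p = 0.0178), and Ptgs1, cyclooxygenase 1 (0.88 ± 0.22, adjusted p = 0.0462). Ptgs2, cyclooxygenase 2, did not pass (1.13 ± 0.51, adjusted p = 0.214). The fifth was Il1rn, which encodes the antagonist of the interleukin-1 receptor, at 14.2, 5.74 and 17.8 against 3.06, 2.01 and 3.37 CPM (2.15 ± 0.51, adjusted p = 0.0407).

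The lower genes of that list were the interleukin-17 receptor chain Il17ra, at 19.4, 41.3 and 17.2 against 81.7, 104 and 175 CPM (-2.21 ± 0.40, adjusted p = 0.0178), the cytokine gene Mif (-0.90 ± 0.15, adjusted p = 0.0120), and Il33, an alarmin gene at or below 1 CPM in every one of the 6 libraries (-2.29 ± 0.54, adjusted p = 0.0407). All KO+s libraries lay below all KO+f libraries in these 3 genes. Of 30 NF-kB subunits and regulators 1 was higher (median 0.18): Ikbke, a kinase that activates NF-kB and interferon signalling, at 170.3, 192 and 119 against 74.96, 75.9 and 58.4 CPM (1.20 ± 0.22, adjusted p = 0.0183). Of 36 Toll-like receptor and inflammasome genes 2 were higher, Irak3, a brake on Toll-like receptor signalling (1.01 ± 0.20, adjusted p = 0.0208), and Nod1, a sensor of bacterial peptidoglycan (0.85 ± 0.20, adjusted p = 0.0412). In that list 2 were lower, the lectin receptor gene Clec4d (-2.11 ± 0.47, adjusted p = 0.0341) and Tlr6 (-1.51 ± 0.36, adjusted p = 0.0420). Of the 13 called genes with values above, the number that did not pass was 13 without KO+s 1 (adjusted p up to 0.174), 4 without KO+s 2 (adjusted p up to 0.0962), 11 without KO+s 3 (adjusted p up to 0.157), 6 without KO+f 1 (adjusted p up to 0.0970), 6 without KO+f 2 (adjusted p up to 0.112) and 9 without KO+f 3 (adjusted p up to 0.132).

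Among genes of MHC class I, which presents peptides to T cells, 4 of 16 were higher with the short form. B2m, the invariant light chain of class I molecules, stood at 1296, 1191 and 1602 CPM in KO+s and 606, 683 and 411 in KO+f (1.27 ± 0.18, adjusted p = 0.00746), against 257, 279 and 288 in KO+EV and 359.5, 331 and 286 in WT+EV, so both add-back groups lay above both empty-vector groups. The heavy chain genes H2-K1 (859, 738 and 921 against 487, 532 and 334 CPM, 0.90 ± 0.17, adjusted p = 0.0183), H2-D1 (0.76 ± 0.14, adjusted p = 0.0193) and H2-Q4 (0.95 ± 0.22, adjusted p = 0.0388) passed, and their close sequence similarity makes the split of reads among them uncertain. The 16 class I and peptide-loading genes tested had a median of 0.33. Of 11 class II genes 1 was lower, H2-DMa, a chain of the class II peptide exchanger, at 40.2, 42.3 and 29.04 against 69.9, 67.3 and 84.6 CPM (-0.99 ± 0.20, adjusted p = 0.0247).

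Of 47 interferon response genes 3 were higher and 0 lower (median 0.23). Ddx58, the RNA sensor RIG-I, read 83.3, 65.9 and 83.2 against 35.6, 29.4 and 26.9 CPM (1.34 ± 0.15, adjusted p = 0.00489). Isg20, an interferon-induced exonuclease, was higher as well (1.42 ± 0.29, adjusted p = 0.0247). In the empty-vector groups Ddx58 stood at 28.4, 29.8 and 29.01 CPM (KO+EV) and 22.6, 29.9 and 26.3 CPM (WT+EV), below every KO+s library. B2m and Ddx58 passed in each of the 6 fits that left out 1 KO+s or KO+f library. Of the 7 called genes with values above, the number that did not pass was 5 without KO+s 1 (adjusted p up to 0.151), 1 without KO+s 2 (adjusted p 0.0512), 5 without KO+s 3 (adjusted p up to 0.116), 1 without KO+f 1 (adjusted p 0.0905), 1 without KO+f 2 (adjusted p 0.0609) and 4 without KO+f 3 (adjusted p up to 0.130).

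**Figure D3:**
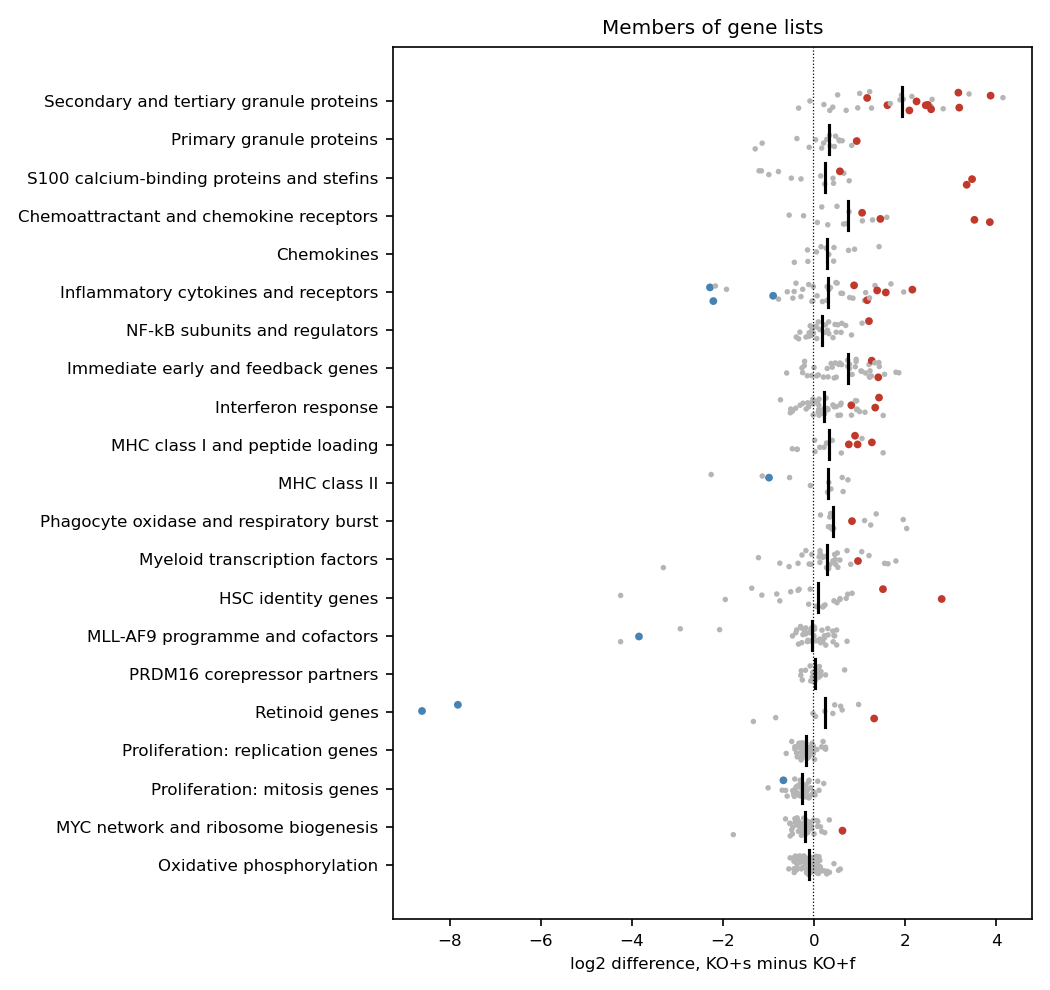
Log2 difference, KO+s minus KO+f (x), of each tested member of 21 gene lists (rows). Red and blue points are members called higher or lower, grey points are members not called, black bars are list medians and the dotted line is the median of all genes tested (-0.02); the secondary and tertiary granule list has the median farthest from it, at 1.92.

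Of the stem-cell identity and MLL-AF9 programme lists 8% and 2.22% of the genes tested were called, against 3.81% of all genes tested. Pbx3, a TALE homeodomain partner of HOX proteins that MLL-rearranged leukaemia cells use together with HOXA9 and MEIS1, was lower in KO+s, at 7.64, 3.67 and 22.4 against 137, 123 and 224 CPM (-3.84 ± 0.69, adjusted p = 0.0179), and stood at 247, 241 and 52.1 in KO+EV and 111, 141 and 116 in WT+EV. Pbx3 was the 1 call among 45 genes of the MLL-AF9 programme and its cofactors (median -0.05). Hoxa9 (-0.19 ± 0.17, adjusted p = 0.543) and Meis1 (194, 162 and 171 against 170.2, 134 and 159 CPM, 0.19 ± 0.26, adjusted p = 0.710) did not pass and their groups overlapped.

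Flt3, a receptor kinase of early progenitors, did not pass despite its size, at 23.2, 24.1 and 55.6 against 348, 342 and 98.3 CPM (-2.94 ± 1.05, adjusted p = 0.131), KO+f 3 being far below the other 2. Eya1, a cofactor turned on by MLL fusions, did not pass at 0.666, 0.585 and 8.25 against 49.7, 5.51 and 124 CPM (-4.25 ± 1.11, adjusted p = 0.0578), with overlapping groups. Of 25 stem-cell identity genes (median 0.08) 2 were higher, among them Cdkn1c, the cell-cycle inhibitor p57, at 121, 101 and 149.6 against 47.2, 46.9 and 36.5 CPM (1.51 ± 0.27, adjusted p = 0.0158). Igf2bp3, Msi2 and Lin28a, RNA-binding proteins of fetal and stem cells, were picked after their values were seen, and RNA-binding proteins were not counted as a group. Igf2bp3 read 67.5, 71.7 and 45.9 against 158, 162 and 177 CPM (-1.43 ± 0.20, adjusted p = 0.00668) and Msi2 20.6, 26.9 and 18.9 against 65.6, 62.2 and 81.3 CPM (-1.66 ± 0.39, adjusted p = 0.0415). Lin28a, which blocks let-7 maturation, read 3.29, 1.33 and 2.87 against 15.1, 3.84 and 28.3 CPM (-2.65 ± 0.57, adjusted p = 0.0341) and 68.3, 68.2 and 57.4 in KO+EV, so both add-back groups lay below it. Igf2bp3 passed in each of the 6 fits that left out 1 KO+s or KO+f library. Of the 5 called genes with values above, the number that did not pass was 4 without KO+s 1 (adjusted p up to 0.154), 2 without KO+s 2 (adjusted p up to 0.0783), 3 without KO+s 3 (adjusted p up to 0.158), 2 without KO+f 1 (adjusted p up to 0.0678), 1 without KO+f 2 (adjusted p 0.0702) and 4 without KO+f 3 (adjusted p up to 0.131).

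No difference was detected in the genes of PRDM16's own partners. Of 20 corepressor partner genes, among them Ctbp1, Ctbp2, Ehmt1 and HDAC genes, edgeR and DESeq2 called 0, and 2 had an unadjusted p under 0.05. Their differences ran from -0.29 to 0.67 with a median of 0.02. The smallest adjusted p was 0.189, for the histone methyltransferase gene Suv39h1. Of 6 PRDM family genes tested edgeR called 0 (3 at an unadjusted p under 0.05) and DESeq2 1. The smallest p was that of Prdm9, a histone methyltransferase of meiosis, at 25.3, 24.3 and 23.1 against 17.2, 13.2 and 7.86 CPM (0.93 ± 0.24, adjusted p = 0.0523), with groups apart. Of 10 brown-fat genes tied to PRDM16 in adipocytes edgeR and DESeq2 called 0 (2 at an unadjusted p under 0.05; smallest adjusted p = 0.105, Cebpb), and of 41 chromatin-modifier genes likewise 0 (7; 0.128, Dnmt3b). Of 15 genes of mitochondrial dynamics edgeR called 0 (6 unadjusted) and DESeq2 2, the smallest edgeR adjusted p being 0.0516, for Ppargc1b.

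Other genes with the largest rises have varied roles. Tdrd9, a helicase that silences transposons in the germ line, stood at 13.9, 45.9 and 4.15 CPM in KO+s and 1.07, 0.336 and 0.0888 in KO+f (5.42 ± 1.06, adjusted p = 0.0227), with a wide spread among KO+s libraries. Fam123a (Amer2), a regulator of WNT signalling, read 38.1, 13.1 and 47.9 against 1.65, 0.767 and 0.666 CPM (5.003 ± 0.59, adjusted p = 0.00489), and Slco4c1, an organic anion transporter, 19.8, 10.3 and 20.8 against 1.75, 3.55 and 1.15 CPM (2.98 ± 0.67, adjusted p = 0.0355). Clec4b2, a C-type lectin receptor with a close copy in Clec4b1 and so uncertain, read 143, 128 and 240.3 against 30.5, 30.3 and 5.02 CPM (2.96 ± 0.67, adjusted p = 0.0385), with KO+f 3 well below the other 2 KO+f libraries. Sept5, a septin of vesicle release, read 95.1, 49.9 and 69.5 against 6.37, 7.09 and 14.6 CPM (2.93 ± 0.35, adjusted p = 0.00489) and 50.4, 29.01 and 47.9 in WT+EV, where 1 library exceeded the lowest of KO+s. Slc2a3, the glucose transporter GLUT3 and the 1 call of 31 glycolysis and glucose uptake genes (median 0.21), read 155, 92.2 and 129.6 against 20.1, 13.9 and 22.5 CPM (2.74 ± 0.58, adjusted p = 0.0312). Fam123a and Sept5 passed in each of the 6 fits that left out 1 KO+s or KO+f library. Of the 6 called genes with values above, the number that did not pass was 4 without KO+s 1 (adjusted p up to 0.120), 1 without KO+s 2 (adjusted p 0.0515), 3 without KO+s 3 (adjusted p up to 0.136), 3 without KO+f 1 (adjusted p up to 0.0828), 3 without KO+f 2 (adjusted p up to 0.0869) and 4 without KO+f 3 (adjusted p up to 0.129).

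Lower genes were near the floor with the short form in 91 of 228 cases, as given above, and the largest of them were expressed in both empty-vector groups. Col6a3, a chain of collagen VI, stood at 0.267, 0.106 and 0.102 CPM in KO+s and 30.9, 6.86 and 95.5 in KO+f (-8.03 ± 1.08, adjusted p = 0.00647), against 141, 201 and 143 in KO+EV and 122, 172 and 80.2 in WT+EV. KO+f 2 was the lowest of its group and KO+f 3 the highest. Cgnl1, a junction protein (paracingulin), kept a low level, at 7.91, 3.46 and 10.1 against 288, 157 and 640.4 CPM (-5.65 ± 0.67, adjusted p = 0.00489). Pmp22, a myelin and epithelial membrane protein, read 1.95, 0.532 and 1.79 against 31.04, 11.03 and 44.4 CPM (-4.31 ± 0.57, adjusted p = 0.00592), and Gprasp2, a sorter of G protein-coupled receptors, 0.755, 1.12 and 0.922 against 29.8, 8.87 and 57.4 CPM (-5.10 ± 0.70, adjusted p = 0.00679).

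Matrix, membrane and metabolic genes were also among those with the largest falls. Vcan, the matrix proteoglycan versican, read 0.933, 0.851 and 0.359 against 20.1, 2.73 and 36.5 CPM (-4.77 ± 0.89, adjusted p = 0.0199). Ppp1r14c, an inhibitor of protein phosphatase 1, read 0.0444, 0 and 0.307 against 25.1, 6.71 and 48.9 CPM (-7.79 ± 1.17, adjusted p = 0.00982), and Gcnt4, a glycosyltransferase of O-glycans, 0.533, 0.585 and 0.410 against 19.5, 5.75 and 60.7 CPM (-5.80 ± 0.98, adjusted p = 0.0149). In each of these KO+f 2 was again the lowest KO+f library and KO+f 3 the highest. Abcc8, the sulfonylurea receptor (-5.04 ± 1.12, adjusted p = 0.0368), Cdc42bpa, a kinase downstream of CDC42 (-4.87 ± 0.96, adjusted p = 0.0245), and Ddx4, the germ-cell helicase VASA (-4.82 ± 1.17, adjusted p = 0.0478), fell too. Ddx4 and Tdrd9, both germ-line helicases, moved in opposite directions. Col6a3, Cgnl1 and Pmp22 passed in each of the 6 fits that left out 1 KO+s or KO+f library. Of the 11 called genes with values above, the number that did not pass was 8 without KO+s 1 (adjusted p up to 0.161), 3 without KO+s 2 (adjusted p up to 0.109), 5 without KO+s 3 (adjusted p up to 0.165), 2 without KO+f 1 (adjusted p up to 0.0737), 1 without KO+f 2 (adjusted p 0.0558) and 4 without KO+f 3 (adjusted p up to 0.129). These include Stra6, described next.

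**Figure D4:**
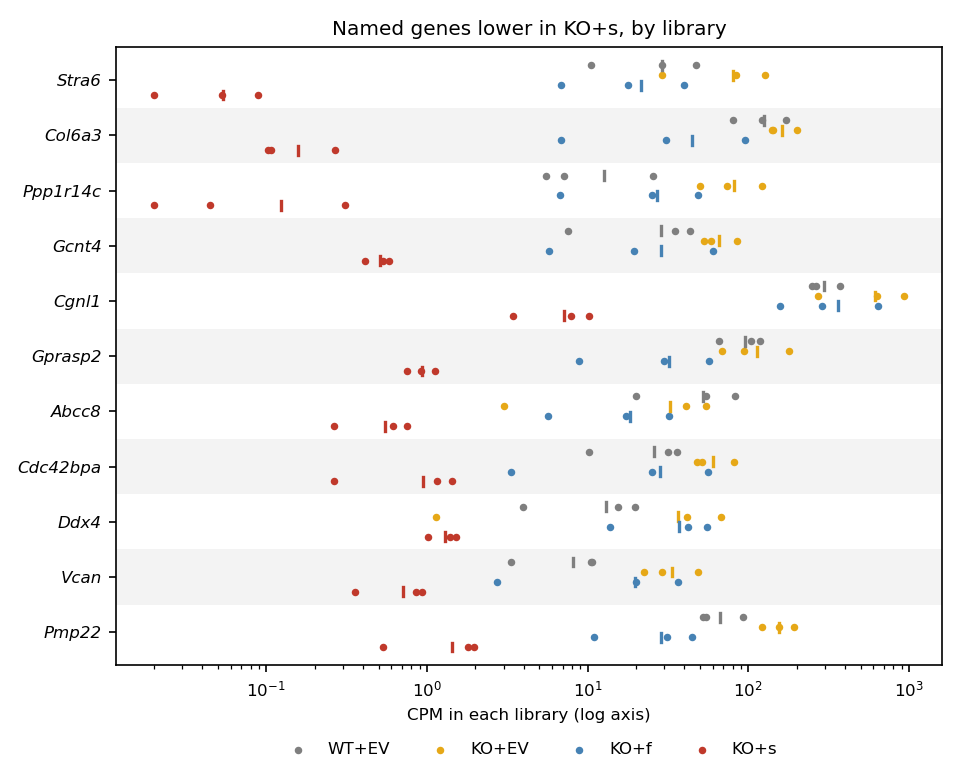
CPM of 11 genes lower in KO+s in each of the 12 leukaemia libraries (points, log axis; values below 0.02 drawn at 0.02; short bars are group means). The genes were chosen for groups that do not overlap, so the KO+s libraries (red) lie to the left of all KO+f libraries (blue) in each row by choice. KO+f 2 is the leftmost blue point in every row.

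Retinol transport genes were among those off in KO+s. Stra6 encodes the cell-surface receptor that takes up retinol from its plasma carrier, and Rbp4 encodes that carrier. Stra6 had 3 counts over the KO+s libraries and 1407 over the KO+f libraries, a ratio of 446 at equal depth (95% counting interval 152 to 2166), with 17.9, 6.81 and 39.8 CPM in KO+f (-8.60 ± 1.25, adjusted p = 0.00832). Rbp4 had 3 against 822 counts, a ratio of 261 (88.9 to 1267), with 5.35, 10.2 and 22.2 CPM in KO+f (-7.82 ± 1.02, adjusted p = 0.00562). Intervals cover counting error only. Leaving out 1 library moved the ratio of Stra6 to between 250.2 (without KO+f 3) and 843 (without KO+s 1), and that of Rbp4 to between 158 (without KO+f 3) and 531 (without KO+s 3). Of 13 retinoid genes tested these were the 2 lower ones and Rdh12, a retinol dehydrogenase, was the 1 higher one, at 32.6, 26.01 and 41.6 against 14.2, 15.7 and 10.3 CPM (1.32 ± 0.29, adjusted p = 0.0324); the list median was 0.23.

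Other genes at or near 0 in KO+s had low levels elsewhere. B3galt1, a galactosyltransferase, had 0 counts in KO+s and 435 in KO+f, at least 138-fold lower by the limit of 3 counts over the group that a count of 0 allows; KO+f stood at 3.60, 2.35 and 13.8 CPM (adjusted p = 0.0138). Lipn, a lipase of skin, had 0 against 155 counts, at least 49.2-fold lower, with 1.36, 0.288 and 5.37 CPM in KO+f (adjusted p = 0.0217). KO+f 3 held most counts of both genes, and without it the limits were at least 60.2-fold for B3galt1 and at least 16.6-fold for Lipn; without 1 of the KO+s libraries they were 86.9 to 95.3 and 31.0 to 34.0. Nog, the secreted BMP antagonist noggin, had 3 against 228 counts, a ratio of 72.3 (24.4 to 353; adjusted p = 0.0104), and Tmem98, a membrane protein, 1 against 157 counts, a ratio of 149 (26.4 to 5937; adjusted p = 0.0229). The ratio of Nog was 49.1 without KO+s 3 and 149.9 without KO+s 2, and that of Tmem98 was 47.0 without KO+f 3. In the list of TGF-beta, BMP and ID genes, which does not hold Nog, edgeR called 0 of 25 tested (7 at an unadjusted p under 0.05) and DESeq2 2, with a median of -0.29 and a smallest adjusted p of 0.0948, for Ltbp2. Rbp4 passed in each of the 6 fits that left out 1 KO+s or KO+f library. Of the 6 called genes with values above, the number that did not pass was 5 without KO+s 1 (adjusted p up to 0.115), 1 without KO+s 2 (adjusted p 0.0605), 5 without KO+s 3 (adjusted p up to 0.135), 1 without KO+f 1 (adjusted p 0.0625), 1 without KO+f 2 (adjusted p 0.0529) and 2 without KO+f 3 (adjusted p up to 0.118).

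Mitosis, replication and MYC network genes mostly differed by small steps. Called were 2.08, 0 and 1.82% of them, against 3.81% of all genes tested. Of 48 mitosis genes 43 lay below 0 with a median of -0.26, and 1 was called lower, Aurkb, a kinase of chromosome segregation, at 72.8, 71.5 and 64.95 against 95.7, 101 and 137 CPM (-0.67 ± 0.16, adjusted p = 0.0405). Of 47 replication genes 40 lay below 0 with a median of -0.18; edgeR called 0 (7 at an unadjusted p under 0.05) and DESeq2 1. The smallest adjusted p was 0.0892, for the licensing factor Cdc6. Of 55 genes of the MYC network and ribosome biogenesis 46 lay below 0 with a median of -0.20, and the 1 call was higher: Mxi1, an antagonist of MYC, at 262, 255 and 249 against 174, 155 and 169 CPM (0.62 ± 0.13, adjusted p = 0.0274). These counts below 0 are a description with no test. Over all genes tested 47.8% lay above 0.

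Of 27 cyclin, G1 kinase and CDK inhibitor genes 3 were higher: Cdkn1c, the D-type cyclin Ccnd3 at 344, 239 and 338 against 200.4, 136 and 166 CPM (0.87 ± 0.18, adjusted p = 0.0279), and the retinoblastoma gene Rb1 at 93.8, 83.02 and 104 against 71.3, 51.5 and 56.1 CPM (0.65 ± 0.16, adjusted p = 0.0412). Of 45 immediate early and feedback genes 37 lay above 0 (median 0.74), against 47.8% of all genes tested. In this list edgeR called 2 higher (4.44%, against 2.05% of all) and DESeq2 5, all higher, with 16 at an unadjusted p under 0.05. The 2 edgeR calls were Ier5, at 98.4, 59.1 and 139 against 52.9, 28.00 and 30.98 CPM (1.41 ± 0.31, adjusted p = 0.0341), and Dusp6, a phosphatase that switches off ERK, at 60.9, 65.9 and 57.5 against 18.9, 35.3 and 22.6 CPM (1.26 ± 0.32, adjusted p = 0.0492). Of 33 heat shock and unfolded protein genes edgeR called 0 (8 at an unadjusted p under 0.05) and DESeq2 3, with a median of 0.12 and a smallest adjusted p of 0.0643, for Hspa9. Among 82 ribosomal protein genes 1 was lower, Rps2 (-0.53 ± 0.13, adjusted p = 0.0473; many copies, so uncertain), with a median of -0.01. Of the 7 called genes with values above, the number that did not pass was 7 without KO+s 1 (adjusted p up to 0.165), 3 without KO+s 2 (adjusted p up to 0.0906), 7 without KO+s 3 (adjusted p up to 0.158), 1 without KO+f 1 (adjusted p 0.105), 6 without KO+f 2 (adjusted p up to 0.119) and 7 without KO+f 3 (adjusted p up to 0.160).

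Metabolic lists held few calls. Of 75 oxidative phosphorylation genes edgeR called 0 (13 at an unadjusted p under 0.05) and DESeq2 6, with a median of -0.12 and a smallest adjusted p of 0.0668, for Atp5g3. Of 31 cholesterol and fatty acid synthesis genes 1 was lower and 1 higher; the higher one was Mvd, an enzyme of isoprenoid synthesis, at 36.1, 27.8 and 25.9 against 18.00, 16.7 and 15.7 CPM (0.83 ± 0.15, adjusted p = 0.0178). Of 27 antioxidant enzymes 2 were lower: Sod1, which removes superoxide in the cytosol, at 59.9, 61.96 and 62.7 against 97.97, 115 and 106 CPM (-0.79 ± 0.12, adjusted p = 0.00845), and the peroxiredoxin Prdx4 at 12.1, 13.4 and 13.3 against 27.8, 18.5 and 51.5 CPM (-1.34 ± 0.33, adjusted p = 0.0462).

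Genes of other blood lineages showed 2 more falls. F7, coagulation factor VII, the 1 lower call of the monocyte and macrophage list, read 3.42, 5.21 and 3.84 against 48.3, 13.5 and 105 CPM (-3.74 ± 0.75, adjusted p = 0.0248), and Rag2, of the recombinase of lymphocyte precursors and the 1 call of 10 B-cell genes, 0.267, 0.0532 and 0.359 against 1.95, 3.02 and 0.755 CPM (-3.03 ± 0.65, adjusted p = 0.0303). In 8 further lists edgeR called 0; at an unadjusted p under 0.05 and by DESeq2 the counts were 6 and 5 of 17 megakaryocyte genes, 0 and 0 of 18 erythroid genes, 3 and 1 of 12 mast cell and eosinophil genes, 7 and 3 of 15 T and NK-cell genes, 3 and 1 of 10 stromal genes, 9 and 1 of 36 lysosome genes, 0 and 0 of 36 replication-dependent histones, and 1 and 0 of 7 nuclear-retained RNAs. Of 5 tested sex-linked genes edgeR called 0 and DESeq2 1, higher in KO+s, with 1 at an unadjusted p under 0.05 in edgeR. Of the 5 called genes with values above, the number that did not pass was 5 without KO+s 1 (adjusted p up to 0.162), 3 without KO+s 2 (adjusted p up to 0.0942), 3 without KO+s 3 (adjusted p up to 0.147), 2 without KO+f 1 (adjusted p up to 0.0625), 1 without KO+f 2 (adjusted p 0.0713) and 3 without KO+f 3 (adjusted p up to 0.135).

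Fetal liver stem cells that keep the short form only gave independent libraries to set beside the leukaemia. They came from mice whose f-PRDM16 is disrupted (labelled 47bpKO, s-PRDM16 only, 3 libraries) and their wild types (3 libraries), sorted haematopoietic stem cells (HSCs) at 35.5 to 44.95 M counts, prepared by low-input amplification. Embryonic age and sorting markers are not given in the sources used here. In these cells the short form is at its own locus and is not over-expressed. Total Prdm16, both forms counted together, stood at 6.53, 9.74 and 7.83 CPM in s-PRDM16-only HSCs and 13.4, 32.4 and 20.2 in wild type (-1.45 ± 0.36, adjusted p = 0.999; with the replicate number as a block -1.38 ± 0.19, adjusted p = 0.114). Each of the 3 s-PRDM16-only libraries lay below all wild-type libraries in total Prdm16, with an unadjusted p of 0.00475 that did not pass adjustment over all genes. By edgeR 0 of 13631 genes passed (0%), 357 had an unadjusted p under 0.05 (2.62%), and DESeq2 called 4 (0.0223%). Same-numbered libraries deviated together, and libraries 1 of both genotypes were the pair nearest to each other in counts. By chi-square per degree of freedom wild-type 2 was nearer to s-PRDM16-only 1 than to 2 (169 against 222). Wild-type 3 was likewise nearer to s-PRDM16-only 2 than to 3 (69.4 against 105). By correlation of log2 counts the same-numbered libraries were the nearer ones in both cases. Seen from s-PRDM16-only 2, however, its same-numbered wild type was the farthest of the wild types by both measures. Chi-square was 222 for wild-type 2 against 203 and 69.4 for wild-type 1 and 3. The correlation was 0.978 against 0.982 and 0.981. The labels do not say that the numbers pair the libraries. With the replicate number as a block 0 genes passed and 1716 had an unadjusted p under 0.05.

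The genes higher with the short form in leukaemia leaned upward in the s-PRDM16-only HSCs. Of the 235 tested there 184 (78.3%) were above 0, with a median of 0.38, against 50.8% of all 11527 genes tested in both. At unadjusted p under 0.05 were 13 of the 235 (5.53%), all upward, against 2.36% of all; with the block it was 73 (31.1%), 63 of them upward, against 11.9%. Without the block the count of 13 depended on single libraries and was 2 without wild-type library 2, 3 without s-PRDM16-only library 3, 4 without s-PRDM16-only library 2, 24 (17 upward) without wild-type library 1, 54 without wild-type library 3 and 77 without s-PRDM16-only library 1. Of 181 genes lower in leukaemia 113 (62.4%) were below 0 in HSCs, against 49.2% of all, with a median of -0.08; the share was 56.5% by DESeq2 and 52.7 to 65.6% with 1 HSC library left out, lowest without s-PRDM16-only library 3. Leaving out 1 HSC library moved the share of 78.3% to between 67.8 and 82.8%, and the median of 0.38 to between 0.17 and 0.54, lowest without s-PRDM16-only library 3. The difference between leukaemia and HSCs was not tested.

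Granule genes were among those above 0 in HSCs, and they varied between HSC libraries of the same group. S100a9 stood at 265, 3553 and 4722 CPM in s-PRDM16-only HSCs and at 242, 277 and 2222 in wild type (1.64 ± 1.18, with the block 1.57 ± 0.93), and Ltf at 51.8, 777 and 1167 against 49.3, 90.9 and 435 CPM (1.80 ± 1.16, with the block 1.53 ± 0.75). The summed mature neutrophil markers were 217, 4953 and 5731 CPM in s-PRDM16-only and 202, 434 and 2489 in wild-type libraries, so the s-PRDM16-only library was above its same-numbered wild type in each of the 3 pairs, by little in pair 1, while the groups overlapped. S100a9, Ltf and Mpo were likewise above in 3 of 3 pairs. Camp and Lyz2 were above in 2 of 3, lying slightly below in pair 1 (36.3 against 40.2 and 514 against 535 CPM). Mpo stood at 5603, 12939.5 and 25583 against 5051, 1520.3 and 9505 CPM (1.46 ± 0.74, with the block 1.54 ± 0.73), while in leukaemia it did not pass. The part of these markers in the shares above was not tested. Itgam (0.88 ± 0.41), Cebpd (0.80 ± 0.45) and Csf3r (0.44 ± 0.30) were above 0 in HSCs as in leukaemia; B2m (-0.29 ± 0.48) and H2-K1 (-0.37 ± 0.42) were below 0. Stra6, Col6a3 and Ppp1r14c were too low in HSCs to be tested. Pmp22 stood at 1.35 ± 0.91 and Cgnl1 at -1.30 ± 1.11. None of these HSC differences passed adjustment in edgeR, and with the block the adjusted p was 0.550 for S100a9, 0.499 for Ltf and 0.488 for Mpo.

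**Figure D5:**
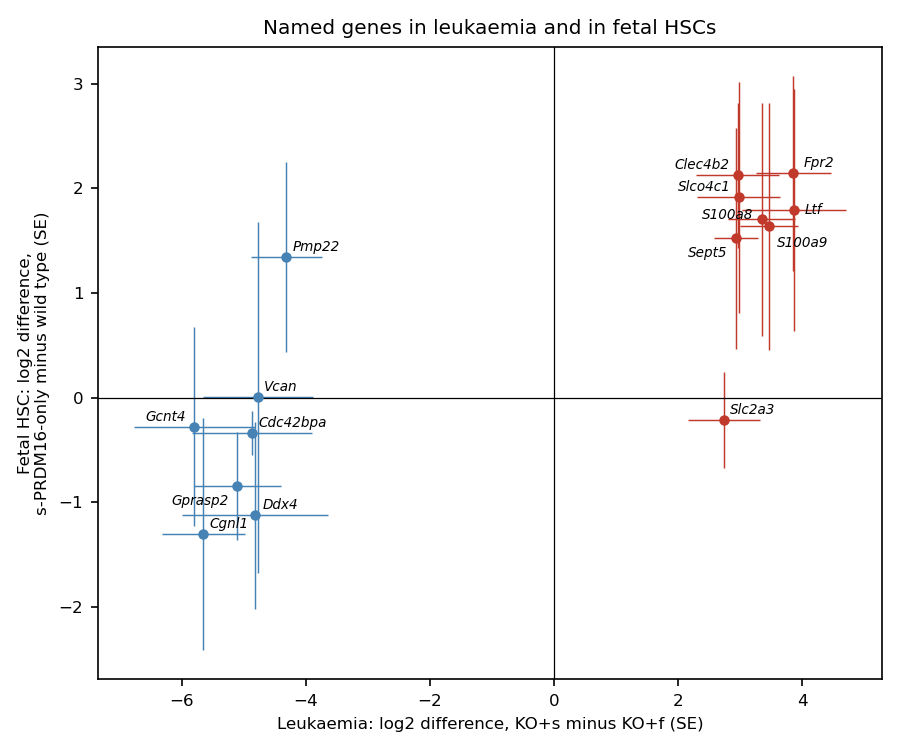
Log2 difference with its standard error in leukaemia (KO+s minus KO+f, x) and in fetal HSCs (s-PRDM16 only minus wild type, y) of the named genes with the largest differences that were tested in both. Most red genes (higher in KO+s) lie above 0 in HSCs with wide errors, and among blue genes (lower in KO+s) Pmp22 lies above 0 and Vcan close to 0.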

How the data were processed

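The authors deposited read counts per gene; per the submitters' processing notes the tools were bcl2fastq 2.17, TopHat and DESeq, with build mm9. The counter, annotation and strand are not given in the sources used here, so reads of overlapping or antisense genes cannot be told apart. All columns matched the labels (0 left over), and no pair of libraries within a table agreed within sampling noise (lowest chi-square per degree of freedom 14.3 within a group and 12.9 across groups, the latter for fetal libraries 1). The 12 leukaemia libraries were fitted together with edgeR 4.0.16 in R 4.3.3 by a two-sided quasi-likelihood test with robust settings, after filterByExpr and TMM scaling, and p was adjusted by Benjamini-Hochberg over all 12958 genes, with a common biological coefficient of variation of 0.253. The fetal libraries were fitted alone after dropping 92 spike-in rows. Adjusted p-values in the report come from edgeR.

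The members and lists were chosen with earlier results of these data known, so the 46 gene lists are described by counts and medians without a test. Named genes were Prdm16; per direction the 12 largest called differences with log2 of the mean CPM over the 6 libraries of at least 3 and no overlap, without sex-linked, Gm-numbered or Rik names; per direction up to 6 called genes with at most 3 counts in the lower group, taking those highest in the other group; and up to 5 called members per list by p, or 1 that did not pass. Some genes that these rules name, and that the counts include, are not reported here. Igf2bp3, Msi2, Lin28a, Camp, Retnlg, Ngp, Mmp9, Cd177, Lcn2, Il1rn, Il33, Ptgs1, Flt3, Eya1, Vcl, Vasp, Lcp1, Cap1, Cnn2, Pak1, Mpo, Elane, Hoxa9 and Meis1 were named after their values were seen, also the genes set beside them in HSCs. Alternatives were DESeq2 1.42.0, RLE size factors, no filter on low counts, the 6 libraries alone, the replicate number as a block, each library left out in turn and, chosen after seeing the data, the fit without KO+EV 3. The fits were tested on simulated data with planted 2-fold and 4-fold differences. The leukaemia fit called 47% of the 2-fold and 74.7% of the 4-fold ones, and the fetal fit 15.3% and 69.4%. Unchanged genes called numbered 9 and 8. A count of 0 called genes can therefore hide differences of these sizes, above all in the fetal fit. Same-numbered fetal libraries had correlated deviations (0.689, 0.443 and 0.670), from the data and not from the labels. Deviations of differently numbered fetal libraries were not compared, so pairing by number is an assumption of the block.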

Additional observations from a re-analysis of the deposited data

How the results depend on the processing

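All 494 called genes kept their sign under each alternative that gave them a value, and none of the named genes reversed. The count of 494 (266 higher, 228 lower) became 1381 with DESeq2 (676 and 705), 1047 without KO+EV 3 (515 and 532), 625 with the 6 libraries alone (368 and 257), 495 with RLE size factors, 393 with no filter on low counts, and 372 with a replicate block (215 and 157). Leaving out 1 replicate gave 37 to 388 genes in all, 20 to 240 higher and 17 to 213 lower. Same-numbered libraries of KO+s and KO+f deviated with correlations of 0.056, 0.300 and -0.042, and differently numbered ones with -0.336 to 0.237. Whether same-numbered libraries share a preparation cannot be told from these values. In the fetal HSCs DESeq2 called 4 genes against 0. Of 90 called genes described with values, 17 passed under all 12 alternatives. Leaving out 1 library moved the fold of 19 of the 90 by over 1.5 times, 15 of them without KO+f 3. The cause of these shifts was not tested.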
